A study of Mus musculus with 11 samples.

Results

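The passenger, or star, arms of conserved microRNA hairpins were measured in livers of wild type (WT) mice and of LivPGC-1β mice, which overexpress the coactivator PGC-1β in the liver. Members were taken by name from the array's 655 probes: every microRNA whose name ends in a star and whose hairpin is numbered from miR-10 to miR-298, without miR-30, miR-127, miR-134, miR-136, miR-154, miR-199 and miR-297. This gave 58 of the 115 star arms on the array. The rule uses names and no intensity. Each star arm was set beside the guide arm of its own hairpin where the array carries it.

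All 11 mice were of the FVB/N strain, 4 months old, and were killed after an overnight fast. Liver RNA of 5 WT and 6 LivPGC-1β animals was read on 1 Illumina bead chip, with 1 mouse per array. WT arrays took the first 5 positions of the chip and LivPGC-1β arrays the last 6, so chip position cannot be told apart from genotype. Values below from fits with chip position as a covariate carry wider standard errors for this reason. The promoter of the LivPGC-1β transgene and the sex of the mice are not given in the sources used here, and the level of PGC-1β itself is not measured by a microRNA chip. In whole liver, fewer cells of a type and less RNA per cell cannot be told apart.

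A microRNA hairpin is cut by Drosha and then by Dicer into a short duplex. One strand, the guide, is kept by an Argonaute protein and pairs with messenger RNAs through its seed, the bases 2 to 8 from its 5′ end, while the other, the star strand, is mostly discarded. Both strands come from the same transcript, so a star arm can follow the production of its hairpin, or can differ from the guide where the strands are kept unequally. In liver, PGC-1β drives mitochondrial genes and, with SREBP1c and LXR, lipid synthesis.

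RefSeq (GRCm38.p6) holds the mature sequence of 54 of the 58 star arms, and of both arms for 51 of them. The star lies on the 3′ arm (3p) in 33 members and on the 5′ arm (5p) in 25. Over the 51 complete hairpins, the star strand began with A in 20, C in 17, G in 7 and U in 7, whereas the guide strand began with U in 31, A in 11, C in 7 and G in 2. The median GC content was 50.0% for star strands and 43.5% for guide strands. Seeds are in capitals below. The first sequences are both arms of 5 hairpins to which the genotype comparison returns: miR-146b and miR-18a, where the guide probe was called and the star probe was not, and miR-106b, miR-33 and miR-29a, with some of the smallest p-values for the balance of the arms.
miR-146b*: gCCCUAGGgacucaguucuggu
miR-146b: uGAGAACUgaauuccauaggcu
miR-18a*: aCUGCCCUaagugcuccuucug
miR-18a: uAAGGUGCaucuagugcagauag
miR-106b*: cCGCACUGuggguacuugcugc
miR-106b: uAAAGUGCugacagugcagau
miR-33*: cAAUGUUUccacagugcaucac
miR-33: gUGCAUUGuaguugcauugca
miR-29a*: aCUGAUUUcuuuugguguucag
miR-29a: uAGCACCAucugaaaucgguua

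In each of these 5 hairpins the star seed differs from the guide seed, so the strands are read by different target sites. The next sequences are those of the star arms with the smallest p-value for genotype and with the largest single-mouse excursion that the guide did not share.
miR-191*: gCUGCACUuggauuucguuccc
miR-20a*: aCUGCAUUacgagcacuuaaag

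Star arms of related hairpins can share a seed, and 3 pairs did. They are shown because their members come from different transcripts or stand beside each other in 1 cluster and were read by separate probes.
miR-24-1*: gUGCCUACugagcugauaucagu
miR-24-2*: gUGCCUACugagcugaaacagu
miR-200a*: cAUCUUACcggacagugcugga
miR-200b*: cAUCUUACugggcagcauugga
miR-17*: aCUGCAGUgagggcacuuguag
miR-20b*: aCUGCAGUgugagcacuucuag

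The embryonic stem cell cluster members miR-293*, miR-294* and miR-295* have bases 2 to 7 in common and differ at base 8. Cross-hybridisation between such similar strands was not tested. The 2 loci of miR-24 make 1 guide strand but star strands that differ at a few bases toward the 3′ end, and each star has a probe of its own. Of the pairs with a shared seed, miR-24-1* and miR-24-2* were both tested for genotype, while miR-200a* and miR-20b* fell below the detection filter and have no test.

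The value of a probe is its intensity, the mean brightness of its beads. All 11 arrays were brought to 1 common distribution (quantile normalization), without background subtraction, and values are given as log2 intensity. Before normalization the array medians were 743 to 1036 in WT and 619 to 871 in LivPGC-1β mice. Over the 47 star probes that passed the detection filter they were 1012 to 1360 in WT and 708 to 1009 in LivPGC-1β mice. Brightness depends on the probe as well as on the RNA, so levels of different probes, including the arms of 1 hairpin, were not compared. Hepatocyte microRNAs such as miR-122, at 14.70 to 14.73 on every array, were detected throughout. For 1 WT mouse the arrays also read striated muscle microRNAs, as given with miR-133a* below.

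Most star probes read above the chip's negative controls in liver. A probe counted as detected where its detection p-value, the chance of such brightness in those controls, was 0.01 or less. Detection does not show that the signal came from the named strand alone. MiR-293* and miR-295*, of the embryonic stem cell cluster, were detected in all 11 mice, and the source of their signal was not tested. Of the 58 star arms, 44 (75.9%) were detected in all 11 mice, against 51 of the 55 guide arms of the same hairpins (92.7%) and 431 of all 655 probes (65.8%). A single array detected 45 to 47 of the star arms in WT and 44 to 49 in LivPGC-1β mice.

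The 8 star arms detected in no mouse included miR-124*, miR-135a* and miR-138*, of hairpins known from neurons. The others were miR-141* of the epithelial miR-200 family, miR-150* of lymphocytes, miR-20b*, miR-186* and miR-218-1*. The guides of miR-138*, miR-141*, miR-150*, miR-20b*, miR-186* and miR-218-1* were nevertheless detected on all 11 arrays. The guide miR-135a was detected on 2 arrays and miR-124 on 0. The other 6 star arms were detected in part. MiR-218-2* was detected in 8 mice, miR-294* in 7, miR-34c* in 5 and miR-200a* in 3. MiR-196a* was detected in 1 LivPGC-1β mouse and miR-99b* in 1 WT mouse, and no fold is given for either. For miR-34c*, from a hairpin induced by p53, detection held in 1 of 5 WT and 4 of 6 LivPGC-1β mice, near the limit. Both loci of miR-218 lie inside Slit genes, and the star of the Slit3 locus passed the limit in 8 mice while that of the Slit2 locus passed it in none.

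The comparison of LivPGC-1β with WT mice asked whether the coactivator alters hepatic microRNAs. No star arm passed the test for a change between the genotypes. The differences ran from -0.47 for miR-20a* to 0.28 for miR-203* on the log2 scale. Star arms of the miR-17 cluster, of hepatocyte hairpins, of the lipid and insulin hairpins and of the muscle and stromal hairpins were alike in having no member past the threshold.

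The test was limma on the 493 probes detected on at least 5 arrays, 47 of them star arms, with Benjamini-Hochberg adjustment over the 493. At an adjusted p under 0.05 it called 0 of 47 star arms, against 10 of all 493 probes (2.03%), of which 8 were higher and 2 lower in LivPGC-1β mice. At an unadjusted p under 0.05, 1 star arm was higher and 0 were lower, against 50 higher (10.1%) and 12 lower (2.43%) over all probes. The 6 LivPGC-1β values stood wholly apart from the 5 WT values for 0 star arms, and for 23 of the 493 probes (4.67%). The median difference of the star arms was -0.014, with 17 above 0 and 30 below, beside a median of 0.009 over all probes.

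**Figure D1:**
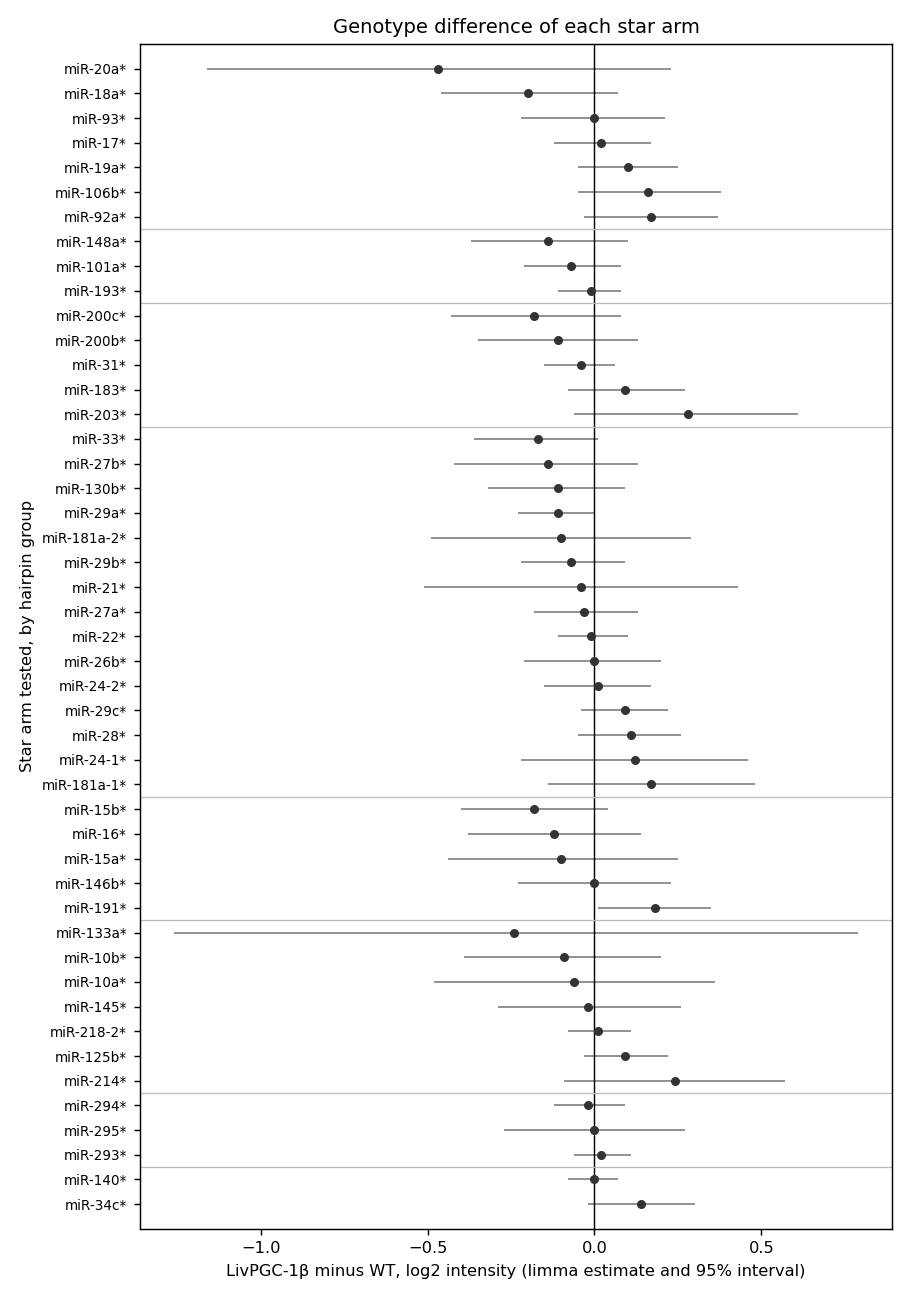
Difference of each of the 47 star arms tested, LivPGC-1β minus WT, on the log2 intensity scale (x axis), with 1 row per star arm in the order of the hairpin groups. Points are limma estimates from 5 WT and 6 LivPGC-1β mice and lines their 95% intervals; the interval of miR-191* lies just above 0, and the widest are those of miR-133a* and miR-20a*.

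The intervals say how large a difference in normalized intensity the limma fit to these 11 mice leaves room for. Because background was left in, they do not bound the change in RNA. Other settings moved the differences, as given with the members below. The 95% interval of limma's estimate reached a median of 0.20 to either side on the log2 scale. For 44 of the 47 star arms it held neither a 1.5-fold rise nor a 1.5-fold fall, and for 45 neither a change of 2-fold. The exceptions at 2-fold were miR-20a* and miR-133a*, each with 1 WT mouse far above the rest. The narrowest interval was that of miR-140*, from a hairpin inside the Wwp2 gene best known from cartilage, from -0.08 to 0.07. WT mice varied more than LivPGC-1β mice for 35 of the 47, with a median SD of 0.17 against 0.11. The same count over all probes is not given, so this is not read as particular to star arms.

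The scale of the arrays affected the direction of the list as a whole. Without normalization 45 of the 47 star arms lay below WT, with a median of -0.24 beside -0.14 over all probes, and 16 passed the unadjusted threshold as lower, where 80 of the 493 probes did. With arrays scaled to their medians, 26 star arms lay above and 21 below, with a median of 0.01 beside 0.11 over all probes. With cyclic loess 8 star arms were lower at the unadjusted threshold, where 44 of the 493 probes were. The median of the star arms was then -0.08 beside -0.02 over all probes. The count of star arms called at an adjusted p under 0.05 was 0 under each of these.

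MiR-191* gave the smallest p-value of the star arms. Its hairpin lies inside Dalrd3, and its guide is an abundant microRNA of many tissues. MiR-191* read 10.08, 10.28, 9.87, 9.93 and 9.93 in the 5 WT mice, and from 10.05 to 10.33 in the 6 LivPGC-1β mice, with a median of 10.21. Only 1 LivPGC-1β mouse stood above all WT mice, and the groups overlapped. The difference was 0.18 ± 0.077 (SE), or 1.13-fold, with an unadjusted p of 0.0402 by limma, an adjusted p of 0.366 and an exact permutation p of 0.0584. Without normalization its sign turned, to -0.11, and with cyclic loess it was 0.06.

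Among the 7 tested members of the miR-17 cluster and its paralogs, which promote proliferation, 4 lay above 0 and 3 below, with a median of 0.024. MiR-92a* read 9.21, 9.27, 9.03, 9.28 and 9.36 in WT mice, and from 9.15 to 9.60 in LivPGC-1β mice, with a median of 9.47. Although 4 of the 6 LivPGC-1β mice stood above every WT mouse, the difference of 0.17 ± 0.091 (SE) had an adjusted p of 0.445 by limma. It was -0.08 without normalization, 0.08 with cyclic loess and 0.05 ± 0.185 (SE) with chip position. MiR-18a* read 9.85, 9.76, 9.36, 10.09 and 9.94 in WT and from 9.41 to 9.77 in LivPGC-1β mice, with a median of 9.64. The groups overlapped, with a difference of -0.20 ± 0.119 (SE) and an adjusted p of 0.499 by limma. It was -0.31 without WT mouse 3, -0.12 without WT mouse 4, -0.47 without normalization and -0.48 ± 0.227 (SE) with chip position.

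MiR-106b*, from the paralog hairpin inside Mcm7, read 10.22, 10.19, 9.93, 10.55 and 10.09 in WT and from 10.24 to 10.47 in LivPGC-1β mice, with a median of 10.35. The highest value was that of WT mouse 4, and the difference of 0.16 ± 0.096 (SE) had an adjusted p of 0.495 by limma. It was 0.09 without WT mouse 3, 0.25 without WT mouse 4, 0.08 with cyclic loess and -0.08 without normalization. Its neighbour in the same Mcm7 hairpin pair, miR-93*, differed by 0.00 ± 0.096 (SE). 

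Within the miR-17 cluster on chromosome 14, the star arms of 4 neighbouring hairpins gave differences of 0.02 for miR-17*, -0.20 for miR-18a*, 0.10 for miR-19a* and -0.47 for miR-20a*. The value of miR-20a* rests on WT mouse 5, as described with the single mice. All 4 had intervals that held 0, that of miR-20a* from -1.16 to 0.23.

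All 3 hepatocyte members lay below WT, by little. These are the stars of miR-101a and miR-148a, abundant in liver, and of miR-193. MiR-101a* read 12.30, 12.53, 12.28, 12.47 and 12.17 in WT and from 12.24 to 12.40 in LivPGC-1β mice, with a median of 12.25. The difference was -0.07 ± 0.065 (SE), with an adjusted p of 0.673 by limma. MiR-193* differed by -0.01 ± 0.041 (SE) and miR-148a* by -0.14 ± 0.107 (SE), with adjusted p of 0.915 and 0.604 by limma.

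Of the 5 tested epithelial members, 2 lay above 0 and 3 below. MiR-203*, from a hairpin of stratified epithelium, had the largest positive difference of the star arms. It read 10.32, 10.67, 9.97, 10.56 and 10.33 in WT and from 10.33 to 11.09 in LivPGC-1β mice, with a median of 10.61. The difference was 0.28 ± 0.152 (SE), or 1.21-fold, with an adjusted p of 0.461 by limma, and 2 LivPGC-1β mice stood above all WT mice. It was 0.18 without WT mouse 3, 0.06 without normalization and 0.13 ± 0.316 (SE) with chip position. The guide miR-203 differed by 0.14 ± 0.048 (SE), with an adjusted p of 0.226.

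MiR-200c* and miR-200b*, of the family that holds epithelial cells together, differed by -0.18 ± 0.114 (SE) and -0.11 ± 0.108 (SE), with adjusted p of 0.529 and 0.673 by limma. Both were highest in WT mice 1 and 2. The difference of miR-200c* was -0.11 without mouse 1, -0.10 without mouse 2 and 0.01 without both, and -0.39 without normalization. MiR-31* differed by -0.04 ± 0.049 (SE). The bile duct guides were miR-200a, miR-200b, miR-200c, miR-141, miR-429 and miR-31, all detected on all arrays. Their summed intensity ran from 28183 to 35095 in WT and from 27051 to 44029 in LivPGC-1β mice. The sum includes the guides of miR-200b*, miR-200c* and miR-31*, and its part in the values of these stars was not tested.

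All 15 members from hairpins tied to hypoxia, lipid metabolism or insulin signalling were tested, and 5 lay above 0 and 10 below. MiR-33* comes from a hairpin inside Srebf2, the gene of the sterol regulator SREBP2, and its guide represses cholesterol export. It read 12.31, 12.40, 12.57, 12.49 and 12.15 in WT and from 12.05 to 12.33 in LivPGC-1β mice, with a median of 12.24. The groups overlapped, although 2 LivPGC-1β mice fell below all WT mice. The difference was -0.17 ± 0.085 (SE), or 0.886-fold, with an adjusted p of 0.43 by limma and an exact permutation p of 0.0823. Without normalization it was -0.37.

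MiR-29a* is the star of a hairpin whose guide represses collagen genes. It read 13.00, 13.10, 13.02, 13.13 and 12.87 in WT and from 12.85 to 13.03 in LivPGC-1β mice, with a median of 12.90. The difference was -0.11 ± 0.052 (SE), with an adjusted p of 0.414 by limma, while it was 0.01 with arrays scaled to their medians and -0.24 without normalization. The stars of the related hairpins differed by -0.07 ± 0.069 (SE) for miR-29b* and 0.09 ± 0.058 (SE) for miR-29c*.

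The stars of both miR-24 loci, which share their seed, differed by 0.12 ± 0.154 (SE) for miR-24-1* and 0.01 ± 0.073 (SE) for miR-24-2*. The stars of both miR-181a loci differed by 0.17 ± 0.140 (SE) for miR-181a-1* and -0.10 ± 0.176 (SE) for miR-181a-2*. Their adjusted p ran from 0.615 to 0.981 by limma. For miR-181a-1*, 5 of the 6 LivPGC-1β mice (9.17 to 9.29) stood above every WT mouse (8.71 to 9.16) and mouse 4 lay below them all at 8.54. Without that mouse it differed by 0.29 ± 0.079 (SE), with an adjusted p of 0.0994, without WT mouse 3 by 0.11, and without normalization by -0.03. MiR-22*, from a hairpin abundant in liver and muscle, read from 13.10 to 13.36 in WT and from 13.16 to 13.30 in LivPGC-1β mice and differed by -0.01 ± 0.049 (SE).

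Of the 5 tested members from blood cell and immune hairpins, miR-191* was above 0 and the other 4 were not. MiR-15b*, from a hairpin inside Smc4 whose guide restrains the cell cycle, read 11.25, 11.30, 11.18, 11.66 and 11.18 in WT and from 10.98 to 11.35 in LivPGC-1β mice, with a median of 11.11. In 4 of the 6 LivPGC-1β mice it lay below every WT mouse. The difference was -0.18 ± 0.101 (SE), with an adjusted p of 0.47 by limma. It was -0.09 without WT mouse 4, -0.41 without normalization and -0.34 ± 0.204 (SE) with chip position. MiR-15a* and miR-16*, neighbours on chromosome 14, differed by -0.10 ± 0.154 (SE) and -0.12 ± 0.116 (SE).

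Among the 7 tested muscle and stromal members, 3 lay above 0 and 4 below. MiR-214*, of a hairpin of stellate cells and fibroblasts inside Dnm3, read 9.17, 9.35, 8.89, 9.80 and 9.40 in WT and from 9.34 to 9.82 in LivPGC-1β mice, with a median of 9.56. The difference was 0.24 ± 0.147 (SE), with an adjusted p of 0.502 by limma, while it was 0.13 without WT mouse 3 and 0.00 without normalization. Its guide differed by 0.21 ± 0.084 (SE), with an adjusted p of 0.317. The stellate cell and fibroblast guides were miR-143, miR-145, miR-199a-3p and miR-214, all detected on all arrays. Their summed intensity was 50951 to 56493 in WT and 57023 to 59888 in LivPGC-1β mice. The sum includes the guide of miR-214* itself, so it is not a separate reading. Its part in the value of miR-214* was not tested.

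The stars of the embryonic stem cell cluster, miR-293*, miR-294* and miR-295*, differed by -0.02 to 0.02. The remaining tested members were miR-140*, given above, and miR-34c*. MiR-34c* read 8.40, 8.58, 8.33, 8.32 and 8.37 in WT and from 8.44 to 8.77 in LivPGC-1β mice, with a median of 8.48, and differed by 0.14 ± 0.072 (SE) with an adjusted p of 0.443 by limma. It was 0.09 without LivPGC-1β mouse 1, 0.35 with normexp correction and 0.01 without normalization.

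**Figure D2:**
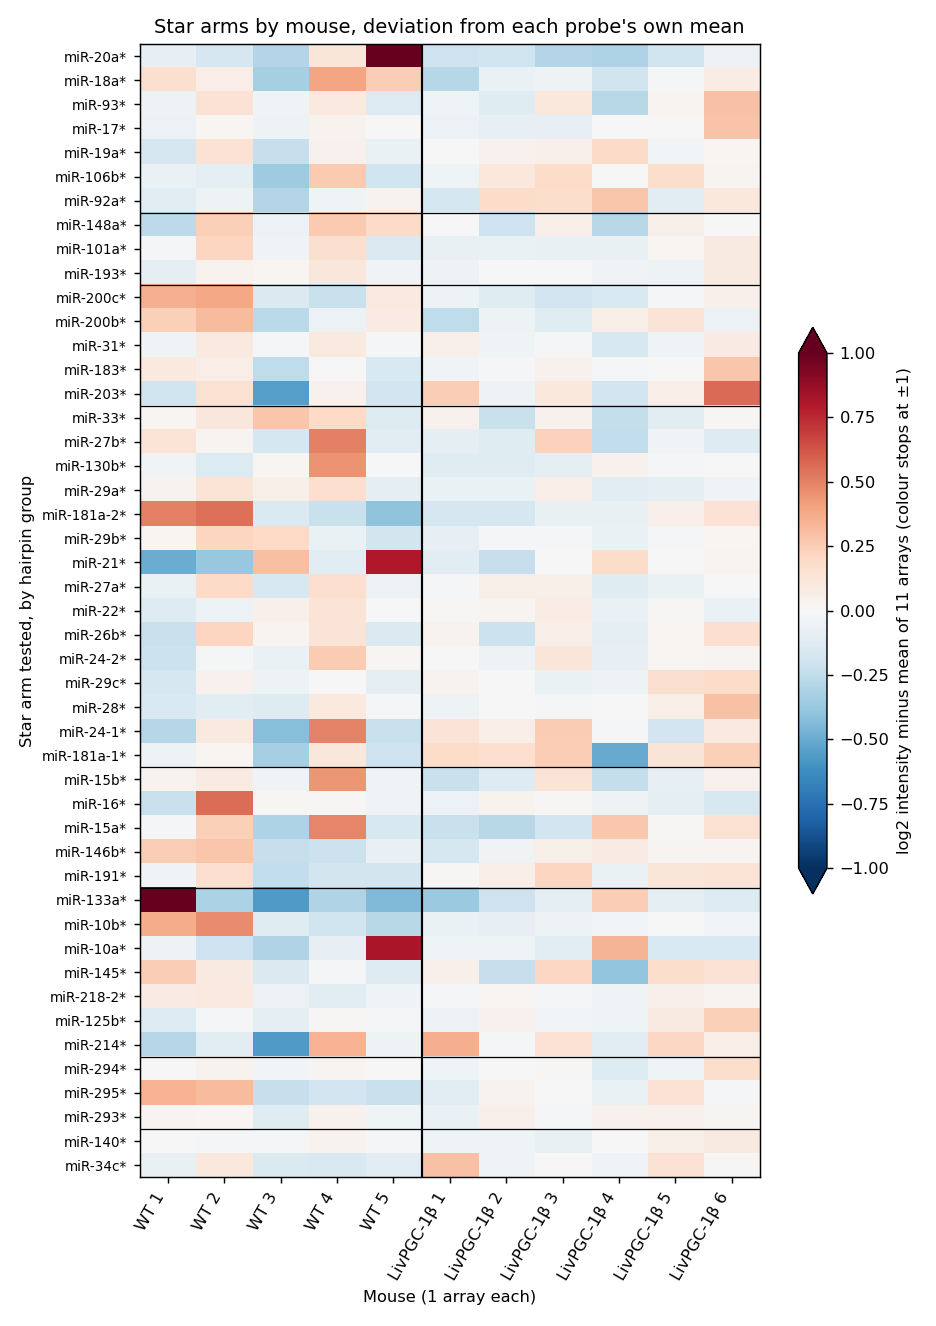
Log2 intensity of the 47 star arms tested (rows, by hairpin group) in each of the 11 mice (columns), as the deviation from the mean of that probe over all mice; red is above and blue below, and the colour stops at 1 either way. No row changes colour cleanly at the line between WT and LivPGC-1β mice, and the darkest cells are single WT mice: miR-20a*, miR-21* and miR-10a* in WT mouse 5 and miR-133a* in WT mouse 1.

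The guide arms of the same hairpins were then set beside the stars. Of the 53 guide arms tested, 1 was called higher, miR-146b, and 1 lower, miR-18a. The star of neither was called. Differences of the guides were above 0 for 40 and below 0 for 13, where those of the stars were above 0 for 17 and below for 30. These counts moved with the scale: guides above 0 numbered 11 without normalization, 51 with median scaling and 32 with cyclic loess. Guide probes were mostly brighter, and the sets were therefore also counted among probes of like brightness, in 3 bins of the 493. Among the brightest 165 probes 0 of 7 stars and 27 of 38 guides lay above 0, beside 60.6% of all probes there. Among the middle 163 it was 8 of 22 stars and 8 of 10 guides, beside 51.5%, and among the dimmest 165 it was 9 of 18 stars and 5 of 5 guides, beside 48.5%. The difference between the sets was not tested.

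MiR-146b restrains inflammatory signalling through TRAF6. The guide read 11.36, 11.41, 11.53, 11.49 and 11.30 in WT and from 11.56 to 12.07 in LivPGC-1β mice, with a median of 11.86. All 6 LivPGC-1β mice stood above all WT mice, with a difference of 0.43 ± 0.092 (SE) and an adjusted p of 0.0449 by limma. Over 23 other settings the call held in 6, with adjusted p from 0.0103 to 0.667, and it was lost when any one WT mouse was left out, while the difference itself stayed between 0.39 and 0.48 with single mice left out. The lowest difference over the settings was 0.21, without normalization.

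The star of the same hairpin showed no such separation. MiR-146b* read 9.63, 9.66, 9.15, 9.17 and 9.31 in WT and from 9.21 to 9.46 in LivPGC-1β mice, with a median of 9.41, all within the WT range. Its difference was 0.00 ± 0.103 (SE), with a 95% interval from -0.23 to 0.23 and an adjusted p of 0.998 by limma. The highest values were those of WT mice 1 and 2, and without both the difference was 0.17, at an adjusted p of 0.286.

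The balance of the arms was tested as star minus guide within each array, in which a probe's own brightness cancels between genotypes. This ratio was fitted with limma over all 79 pairs of arms on the array, 46 of them members, and the adjustment ran over the 79. Because 2 of the guides, miR-24 and miR-181a, each serve the stars of both their loci, those pairs share values. Where a guide is near the top of every array its normalized value is nearly fixed, and the ratio then mostly follows the star. No member was called at an adjusted p under 0.05, while 2 of the 79 pairs were (2.53%), let-7i* and miR-30c-1*, which lie outside the hairpins chosen. At an unadjusted p under 0.05, 2 of the 46 members passed, beside 9 of the 79 pairs (11.4%). The members' ratio lay below WT for 28 and above for 18, with a median of -0.05, and the number below was 40 without normalization or with median scaling and 30 with cyclic loess.

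**Figure D3:**
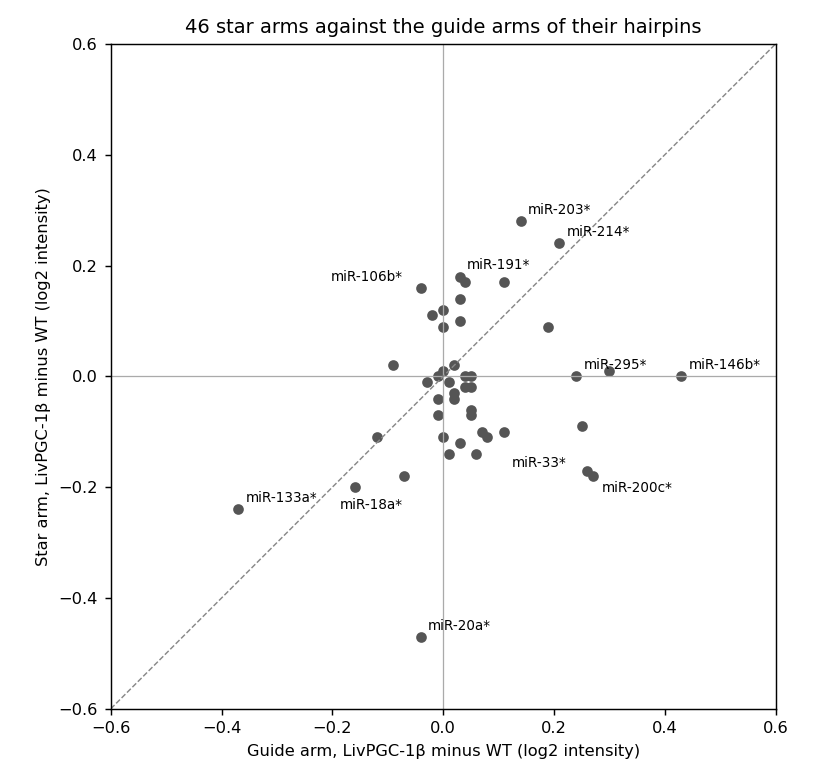
Difference between genotypes (LivPGC-1β minus WT, log2 intensity) of 46 star arms (y axis) against that of the guide arms of their hairpins (x axis), each point 1 star arm. Points on the dashed line have equal differences in both arms; miR-146b* lies to the right at 0.43 for the guide and 0.00 for the star, and miR-20a* below at -0.47 for the star.

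The ratio of miR-146b* to its guide had the smallest p-value among members. Star minus guide was -1.73, -1.76, -2.39, -2.32 and -1.99 in WT and from -2.64 to -2.10 in LivPGC-1β mice, with a median of -2.55. It lay below every WT mouse in 4 of the 6. The difference was -0.43 ± 0.147 (SE), with an unadjusted p of 0.0131 and an adjusted p of 0.2 by limma. It was -0.25 without WT mice 1 and 2 and -0.23 ± 0.299 (SE) with chip position.

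For miR-106b* the ratio was -3.82, -3.82, -4.05, -3.64 and -3.80 in WT and from -3.75 to -3.49 in LivPGC-1β mice, with a median of -3.62. It stood above every WT mouse in 3 of the 6. The difference of 0.20 ± 0.077 (SE) had an unadjusted p of 0.0249 and an adjusted p of 0.281 by limma, and its guide differed by -0.04 ± 0.048 (SE). The ratio's difference was 0.03 both without normalization and with median scaling, and 0.09 ± 0.156 (SE) with chip position as a covariate.

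For miR-33* the ratio was 2.32, 1.67, 2.66, 1.96 and 1.94 in WT and from 1.37 to 2.34 in LivPGC-1β mice, with a median of 1.52. The star differed by -0.17 and the guide by 0.26. With chip position the ratio differed by 0.05 ± 0.416 (SE). In the main fit it differed by -0.43 ± 0.215 (SE), with an adjusted p of 0.459 by limma. For miR-200c* the star differed by -0.18 and the guide by 0.27, which gave -0.45 ± 0.225 (SE) and the same adjusted p, or -0.18 without WT mice 1 and 2. For miR-29a* the ratio differed by -0.11 ± 0.054 (SE), with the guide at 0.00.

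MiR-18a was the other called guide. It read 13.49, 13.38, 13.40, 13.43 and 13.38 in WT and from 13.17 to 13.31 in LivPGC-1β mice, with a median of 13.27. All LivPGC-1β mice lay below all WT mice, with a difference of -0.16 ± 0.035 (SE) and an adjusted p of 0.0451 by limma. The call held in 4 of 23 other settings. The difference stayed between -0.17 and -0.14 with single mice left out and at or below -0.12 in all 23 except with arrays scaled to their medians, where it was 0.05. Its star, with the difference of -0.20 given above, had the same sign with a wider standard error, and miR-18a* minus miR-18a was among the ratios not called.

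**Figure D4:**
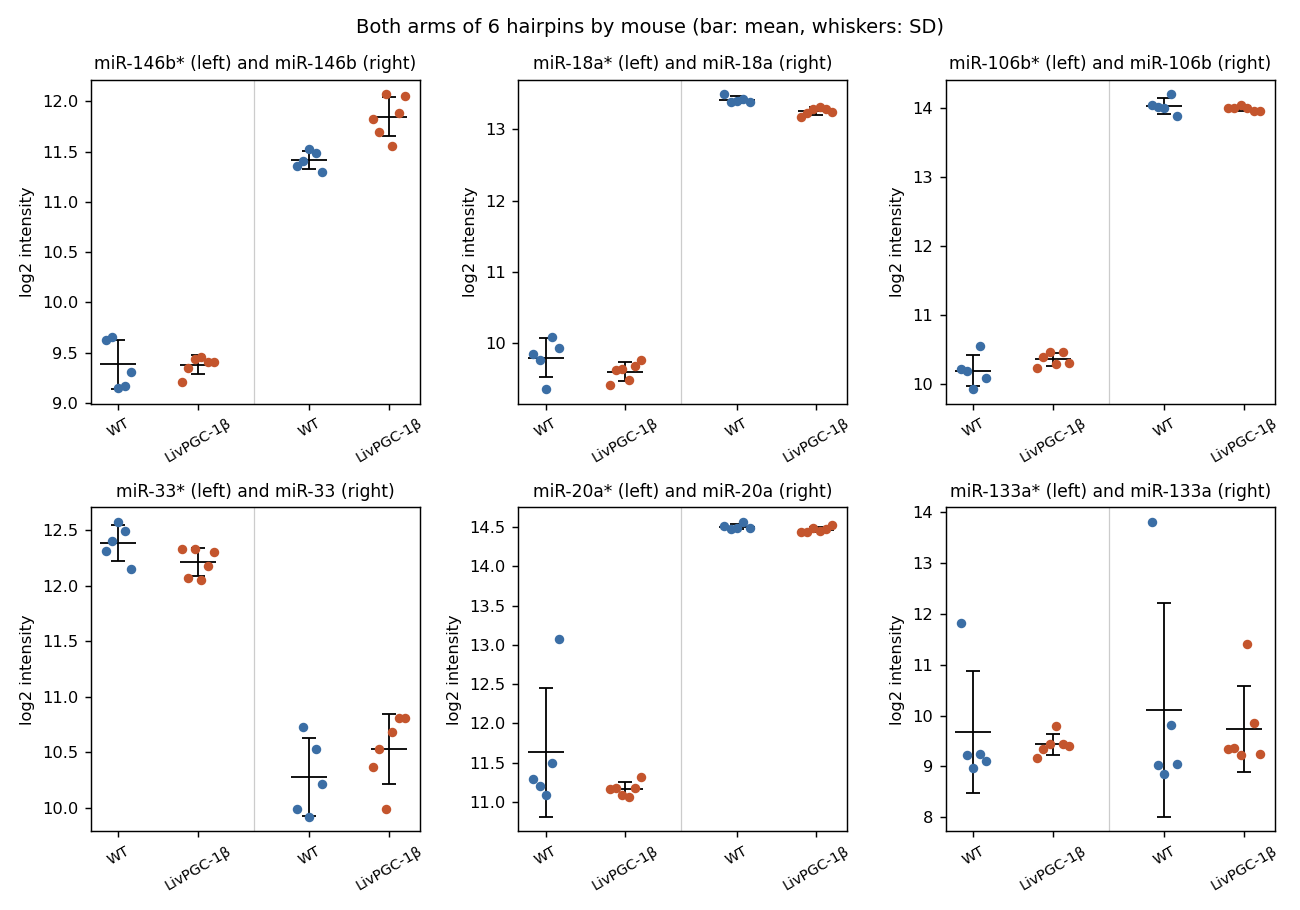
Log2 intensity of both arms of 6 hairpins by mouse; in each panel the star is on the left and the guide on the right, with WT (5 mice, blue) and LivPGC-1β (6 mice, orange), a bar at the mean and whiskers for the SD. The genotypes separate for the guides miR-146b and miR-18a but for none of the stars, and single WT mice stand far above the rest for miR-20a* and for both arms of miR-133a.

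Whether the arms of a hairpin vary together between mice was asked over the 44 pairs detected on all arrays, with values taken as deviations from the mean of their genotype. Pearson's r had a median of 0.29 and ran from -0.51 to 0.95, and 32 of the 44 were above 0. After Benjamini-Hochberg adjustment over the 44, 1 pair passed by Pearson's r and 0 by Spearman's rho. The pairs share arrays, so they are not independent of each other. Of the guides tested, 38 were among the brightest 165 probes, where quantile normalization leaves a value little room to vary. The WT SD of miR-21 and of miR-101a was 0.00. For such guides r cannot show whether the arms vary together.

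That pair was miR-133a* and miR-133a, from the hairpins of heart and skeletal muscle. Over the 11 mice r was 0.95 (permutation p 9e-05, adjusted 0.00396) and rho 0.82 (permutation p 0.00293, adjusted 0.129). Without WT mouse 1 and LivPGC-1β mouse 4, r was 0.77. MiR-133a* read 11.82 in WT mouse 1, and 9.23, 8.98, 9.24 and 9.10 in the other WT mice, and its highest value among LivPGC-1β mice was 9.79 in mouse 4. The genotype difference of miR-133a* was -0.24 ± 0.463 (SE), with an adjusted p of 0.875 by limma, and without WT mouse 1 it was 0.30 ± 0.109 (SE), with an adjusted p of 0.35. The guide read 13.80 in WT mouse 1 and 8.86 to 9.82 in the other WT mice, and 11.40 in LivPGC-1β mouse 4.

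Other muscle microRNAs were high in WT mouse 1, and some of them also in LivPGC-1β mouse 4. MiR-206, of skeletal muscle, read 13.91 in WT mouse 1 and 11.03 in LivPGC-1β mouse 4, and 8.23 to 9.47 in the rest. MiR-133b read 13.24 in WT mouse 1 and 9.83 in LivPGC-1β mouse 4. MiR-1 read 9.88 in WT mouse 1, but 8.11 in LivPGC-1β mouse 4, within the 7.95 to 8.16 of the other LivPGC-1β mice. Of these 4 muscle guides, 1 was detected on all arrays, and their summed intensity ran from 1447 to 40284 in WT and from 1600 to 5968 in LivPGC-1β mice. The part of muscle RNA in the values of miR-133a* was not tested.

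The next pairs by r were miR-106b (0.76), miR-29a (0.70), miR-181a-1* with miR-181a (0.63) and miR-31 (0.58), with adjusted permutation p from 0.237 to 0.45. Without the 2 mice farthest from the guide's median their r ran from 0.50 to 0.58.

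Several star arms stood high in 1 mouse while their guide read within or near its range in the other mice. Quantile normalization sets a value by its place on the array, so a guide near the top has little room to show a rise. MiR-20a*, of the miR-17 cluster, read 13.08 in WT mouse 5, and 11.30, 11.21, 11.09 and 11.50 in the other WT mice. LivPGC-1β mice read 11.07 to 11.32, with a median of 11.18. The guide miR-20a, at places 9 to 18 by brightness, was 14.49 in WT mouse 5 and 14.47 to 14.56 in the other WT mice, and before normalization 14.52 and 14.49 to 14.63. The genotype difference was -0.47 ± 0.313 (SE), with an adjusted p of 0.544 by limma, and without WT mouse 5 it was -0.11 ± 0.080 (SE), with an adjusted p of 0.568.

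In the same mouse miR-21* read 10.67, against 9.38, 9.49, 10.17 and 9.76 in the other WT mice. Its guide, a microRNA that is raised in liver injury, held place 3 or 4 by brightness on every array, so its normalized value of 14.80 in all WT mice cannot show whether it rose. Before normalization miR-21 was 14.80 in WT mouse 5 and 14.81 to 14.88 in the other WT mice. MiR-10a*, from a hairpin inside Hoxb3, read 9.72 in WT mouse 5 and 8.60 to 8.85 in the other WT mice, with the guide miR-10a at 13.51. MiR-99b* read 8.72 in that mouse, its only detection, and 8.10 to 8.22 in the other WT mice. Without WT mouse 5, miR-21* turned from -0.04 ± 0.210 (SE) to 0.15 ± 0.146 (SE) and miR-10a* from -0.06 ± 0.188 (SE) to 0.13 ± 0.101 (SE), with adjusted p of 0.663 and 0.568 by limma.

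WT mice 1 and 2 together held the highest pair of values for miR-10b*, miR-146b*, miR-181a-2*, miR-200b*, miR-200c* and miR-295*. These are 6 of the 44 star arms detected on all arrays (13.6%), beside 42 of the 431 such probes in all (9.74%). Over the 44 star arms the highest value fell most often in WT mouse 4 (12), WT mouse 2 (11) and LivPGC-1β mouse 6 (8). The lowest fell most often in WT mouse 3 (17), LivPGC-1β mouse 4 (10) and WT mouse 1 (9). The same counts over all probes are not given, so these are not read as particular to star arms.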

How the data were processed

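The authors put total liver RNA of each mouse on an Illumina Universal MicroRNA bead chip, scanned it (iScan) and took from Genome Studio the intensity that they deposited for each of 655 probes, with background left in. The same deposited table gives a detection p-value beside every intensity. A second table deposited by the authors holds quantile-normalized intensity and served as an alternative.

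Intensities were quantile normalized and log2 transformed. The 493 probes detected on 5 or more of the 11 arrays, at a detection p no higher than 0.01, were fitted with limma 3.58.1 in R 4.3.3, with Benjamini-Hochberg adjustment over all of them. Star minus guide was fitted over 79 pairs. The guide was found by removing the star, and the locus number where needed; miR-125b*, whose partner is listed as miR-125b-5p, was paired only as an alternative chosen after seeing the data. The sources name no test for these arrays. Single star arms have two-sided exact permutation tests over all splits into 5 and 6, whose smallest possible p is 0.00216, and correlations 100000 resamples. The fit was also run on simulated, independent normal values. It recovered 32.5% of true changes of 0.3 on the log2 scale, 63.1% of those of 0.5 and 84% of those of 0.8. The mean share of false calls was 5.65%, 6.38% and 4.3%. Small changes would therefore often be missed.

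Which arm of the hairpin is the star was assigned from older microRNA naming, since the array names only the star; all 58 hairpins lie on a chromosome that the array file lists. Members and lists were chosen with earlier results of these data known. Star arms named with values are the 10 with the smallest p, the 6 brightest, those with a called guide, the 5 with the smallest p of the ratio, the 5 with the highest correlation, those with 1 array apart and those sharing a seed; others were named after their values were seen. Alternatives were other normalizations and filters, normexp correction with an offset of 16, an intensity trend, a replicate block, chip position and each mouse left out. The number of mice limits the precision. The labels give each mouse as a separate sample.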

Additional observations from a re-analysis of the deposited data

Results flagged for a closer look

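Over the 47 star arms tested, 12 of 94 groups held 1 mouse apart from the others of its genotype by Dixon's test. The nominal rate of the test is about 1 in 20 groups (4.7 of 94). The groups share the same arrays and are not independent, and no count over all probes is given. The number is therefore not read as an excess in star arms. In WT mice, miR-20a* was 13.08 and miR-10a* 9.72 in mouse 5, miR-133a* 11.82 in mouse 1, and miR-15b* 11.66 and miR-130b* 9.38 in mouse 4. In LivPGC-1β mice, miR-17* was 11.94, miR-28* 11.89, miR-193* 13.06 and miR-183* 9.20 in mouse 6, and miR-10a* 9.24 and miR-19a* 9.07 in mouse 4, all high, while miR-181a-1* was low at 8.54 in mouse 4. The guide arm stood outside the range of its other mice in the same direction for miR-133a* (13.80 against 8.86 to 9.82), miR-17* (14.19 against 14.10 to 14.14), miR-193* (13.30 against 12.92 to 13.13), miR-28* (13.84 against 13.58 to 13.68) and miR-181a-1* (12.83 against 12.85 to 12.96). For the others it did not.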

How the results depend on the processing

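The number of star arms called at an adjusted p under 0.05 was 0 under every setting run. At the unadjusted threshold it was 1, beside 50 higher and 12 lower of all 493 probes. Without normalization it became 16, all lower, beside 80 lower of all probes. With cyclic loess it was 8, all lower, beside 44 lower of all probes. Without a detection filter it was 2, both higher, beside 60 higher of 655. With a replicate block it was 0, beside 37 higher and 11 lower of all probes. With single mice left out the star arms past it ran from 0 (without LivPGC-1β mouse 2 or 6) to 4 (without WT mouse 2 or 4). In the order named, these fits gave 40, 45, 56 and 62 higher and 10, 17, 10 and 12 lower over all 493 probes. Settings chosen after seeing the data gave 7, all higher, without WT mice 1 and 2, beside 60 higher of all probes. Without WT mice 1 and 5 it was 3, all lower, beside 20 lower of all probes. Over all probes the 10 calls became 0 in a fit with the chip position added. Position ran along with genotype, and standard errors widened there, for miR-18a* from 0.119 to 0.227. The lost calls therefore do not tell position from genotype. The calls became 0 without normalization, 4 with median scaling, 1 with the replicate block, 6 without WT mice 1 and 2, and 4 without WT mice 1 and 5. With single mice left out they ran from 4 (without WT mouse 1) to 13 (without LivPGC-1β mouse 4). The 2 called arm ratios became 0 without normalization, with median scaling, the replicate block, chip position or without WT mice 1 and 5. Same-numbered mice correlated at -0.13 to 0.07, so the numbers do not pair them.

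Of 407 alternative values of 17 named differences, 391 kept their sign and none passed the adjusted threshold. Most of the 17 were picked for small p-values in these data, and most settings refit largely the same mice. The miR-125b-5p pairing, also counted, leaves all 17 differences as they were. The kept signs are therefore no independent support for a difference. Without normalization miR-191* was -0.11, miR-92a* -0.08, miR-106b* -0.08 and miR-214* 0.00. Scaled to the median, miR-29a* was 0.01. MiR-146b*, at 0.00, was 0.00 with median scaling, 0.01 with normexp, 0.10 with chip position, 0.17 without WT mice 1 and 2 and 0.06 without WT mice 1 and 5, and -0.06 to 0.06 with single mice left out. MiR-200c* was 0.01 without WT mice 1 and 2, and the miR-33 ratio 0.05 with chip position. The cause was not tested. Star arms near the detection limit, such as miR-34c* and miR-294*, are read over a brightness close to that of the negative controls.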
